A study of Mus musculus with 864 samples.

Results

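Reads assigned to repeat elements were examined in single cells picked from the lumbar dorsal root ganglion, the cluster of sensory nerve cell bodies beside the spinal cord. The members are the 1217 rows of the deposited table that name a repeat element, out of 25333 rows, and the other 24116 rows are genes. They were followed in 435 of the 462 single-cell wells of picking sessions A and B that had 1000 or more gene rows above 0. The table holds 864 wells, 799 of them labelled as a single cell. All mice were C57/Bl6 animals aged 6 to 8 weeks, and ganglia L4 to L6 were dissociated and the cells picked by hand at room temperature (RT). Session A gave kept wells from males on plates L128 (87 wells), L129 (40) and L130 (87) and from females on L129 (45), and session B from males on plates L141 (89) and L142 (87). The labels do not say how many animals stand behind a session, so a session and sex is called a preparation here. Cell groups were compared within up to 3 preparations, so p-values do not measure the spread between preparations or between animals. All repeat rows were at 0 in all 384 wells of session C, which was therefore not used.

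Most repeat elements of the mouse genome are copies left by retrotransposons, which spread through an RNA intermediate. LINEs such as L1 and endogenous retrovirus-like elements with long terminal repeats (LTRs) carry RNA polymerase II promoters, and MTD and MTA_Mm belong to the MaLR group of such LTR elements. Short interspersed elements (SINEs) such as B1 and B2 carry an internal promoter for RNA polymerase III, but many copies are also read out as passive parts of introns and of the ends of messenger RNAs. Libraries of this kind prime on poly(A) tails and tag the 5′ end of the RNA, and reads of a repeat name cannot be assigned to 1 copy in the genome. Element names were sorted into families by their spelling alone.

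Sequences of the repeat elements themselves were not used here. Shown instead are 3 sequences from gene rows. Their levels over session B wells were among the 5 most like those of MTD, of MTA_Mm and of the B2 row B2_Mm1t. They were picked among these because they hold letters found in many places of the genome, and after their values were seen. The genes most like MTD and MTA_Mm, Enpep and Crx, do not hold the 18-base run marked here. The hairpin of Mir690 lies at chr16:28599935-28600043 on the minus strand (RefSeq, GRCm38.p6). Its capitals mark an 18-base run that it shares with the long noncoding RNA genes 9530052E02Rik and B230208H11Rik. In the mature miRNA the capitals mark the seed, and in the longest run common to both noncoding genes (35 bases, GENCODE transcripts on GRCm38) they mark the same 18 bases.
Mir690 hairpin: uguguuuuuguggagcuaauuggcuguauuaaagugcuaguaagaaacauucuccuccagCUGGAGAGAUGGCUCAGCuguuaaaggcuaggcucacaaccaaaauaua
miR-690: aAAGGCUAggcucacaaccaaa
9530052E02Rik and B230208H11Rik: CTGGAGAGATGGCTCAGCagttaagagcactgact
As background, letters nearly identical to this run stand close to the start of mouse B2 elements. On either strand, the run CTGGAGAGATGGCTCAGC was held by transcripts of 505 of 55341 GENCODE genes (0.913%) and by 22 of 32851 RefSeq promoter windows of 300 bases (0.0670%), and the 35-base run by 58 genes (0.105%).

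Repeat reads were rare on every plate. Values are RPM, reads per 1000000 reads in the well, and recovered whole reads gave the depth. The 435 wells held 39901 repeat reads, and the mean repeat total was 402 RPM ± 568 (SD, n = 435 wells), or 0.0402% of reads. Median depth was 15421 reads per well in session A males, 15597 in session A females and 198657 in session B. Plate L128 stood apart: 4 of its 87 kept wells held 1 repeat read each and the others none, at a mean of 1.57 RPM, although its median depth of 17486 reads was the highest in session A. The cause was not tested, and the tests that use L128 are given with and without it. Of the 10 kept wells nearest the minimum (1028 to 1252 gene rows) 7 held a repeat read, with a median of 329 RPM, and of the 10 just under it (808 to 994 gene rows) 8 did, with a median of 373 RPM.

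On the other plates the repeat totals of the groups overlapped. Plate L129 held a lowest value of 0, a median of 280 and a highest of 832 RPM in 45 female wells. The 40 male wells of L129 ran from 0 through a median of 231.3 to 1439 RPM. On plate L130 the 87 wells ran from 0 through 364 to 1387 RPM. The ranges of these groups overlapped almost fully, and females and males on L129 had means of 307 ± 203.04 and 279 ± 287 RPM (SD over wells), with no test because each sex is 1 preparation. Session B was somewhat higher. Its plate L141 ran from 135.5 through 389 to 7356 RPM in 89 wells, and plate L142 from 84.005 through 559 to 5580 RPM in 87 wells.

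**Figure D1:**
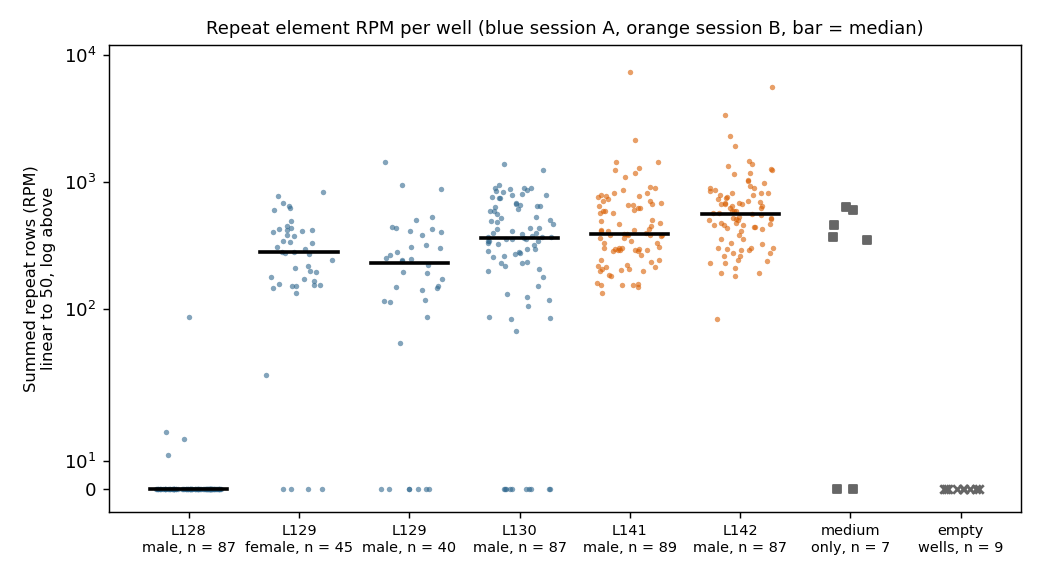
Summed RPM of all repeat rows (vertical axis, linear to 50 RPM and logarithmic above) in each kept single-cell well by plate and sex, with medium-only and empty wells of both sessions at the right; bars are medians. Plate L128 lies at 0 apart from 4 wells, the other plates have medians of 231.3 to 559 RPM, and 5 of 7 medium-only wells lie at 348 to 632 RPM.

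Medium-only wells, which received picking medium without a cell, were not free of repeat reads. Away from L128, 5 of 7 such wells held 9 repeat reads among 26663 reads, a pooled level of 338 RPM (95% Wilson interval 177.6 to 641). Single-cell wells on the same plates had a mean over wells, not pooled, of 503 RPM ± 594 (SD, n = 348 wells). Pooled alike, these wells held 0.0683% of reads, above that interval, but most of their reads came from session B. By session, the medium stood at 219.8 RPM (74.8 to 646) in A and 461 RPM (211.3 to 1006) in B. Pooled cells held 0.0381% of reads in A and 0.0702% in B, inside these intervals. Within a session, the share in the medium could thus not be told from that in cells at this depth. The reads in medium were 1 each of B4A and MTA_Mm and L1_Mur3 in session A, and in session B 1 each of PB1D9, B2_Mm1t, B4A, B3A, RSINE1 and MTD. All 9 empty wells were at 0, but 6 of them are on L128 and the 3 in session B held only 1443 reads in all, which allows up to 2079 RPM (3 reads). Medium-only wells held 0 to 3 repeat reads each, while the median kept well of session B held reads of 26 different repeat rows. These intervals cover counting error only, since reads were not collapsed to molecules. The medium-only wells of plate L130 had 1867 and 1179 gene rows, above the minimum set for kept wells. The other medium-only wells had 398 to 958 gene rows. The minimum alone thus did not separate wells with a cell from medium, and whether every kept well held a cell was not tested.

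A small number of elements made up most of the signal. Of the 1217 rows, 340 had a read in a kept well, 41 reached a mean of 1 RPM and 10 a mean of 5 RPM. The other 877 rows had no read among 58377800 reads on the 4 plates other than L128, which allows up to 0.0514 RPM for each. MTD (10052 reads) and MTA_Mm (8982 reads) together took 47.7% of all repeat reads, and the 10 rows with most reads took 80.2%. At the other end, 33.2% of the 340 rows were seen in 1 well only.

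By family, MaLR elements led with 49.9% of repeat reads from 36 rows (35.6% of the family's rows). The B2 and B3 SINEs followed with 21.5% from all 5 rows, led by B2_Mm1t with 4853 reads. Simple repeats, which are short tandem units, gave 12.3% from 80 of 315 rows, and their highest row was (TCTG)n with 2632 reads. L1, the LINE that is still mobile in mice, gave 4.79% from 60 rows (54.1% of its rows), led by the older L1_Mur3 with 558 reads. The younger subfamilies L1Md_A and L1Md_T had 13 and 10 reads in all. Low-complexity rows gave 2.95%, mostly AT_rich, the B1 SINEs 2.55%, led by B1_Mus1 with 269 reads, and B4, ID and BC1 elements 2.06%, led by B4A with 382 reads. Each remaining family took less than 2% of the reads. MER elements had 1.26% (led by MER2), RLTR elements 1.09% (RLTR1B and RLTR1D with equal reads), RMER 0.514% (RMER5) and older LINEs 0.303% (L2a). MIR had 0.248% (MIR), rows sorted by name as DNA transposons 0.211% (URR1A), other LTR rows 0.150% (LTRIS_Mus) and unsorted names 0.0752% (MMERGLN-int). MER2, with 1.16%, is known as a DNA transposon, so the share of DNA transposons by name is a lower bound.

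Families that are abundant RNAs or well-known mobile elements elsewhere had few or no reads. The libraries prime on poly(A) tails, and how reads with several genomic matches were assigned is not given in the sources used here. Few reads thus need not mean little RNA. IAP and ETn elements, the LTR retrotransposons behind many spontaneous mouse mutations, had 11 reads from 6 of 21 rows, led by IAPEz-int with 6. BC1_Mm, a polymerase III transcript of neurons, had 1 read. The 60 tRNA rows had 2 reads, the 15 rows of small nuclear and other small RNA had 4 (U1 2), and the 3 rRNA and 5 satellite rows had none.

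**Figure D2:**
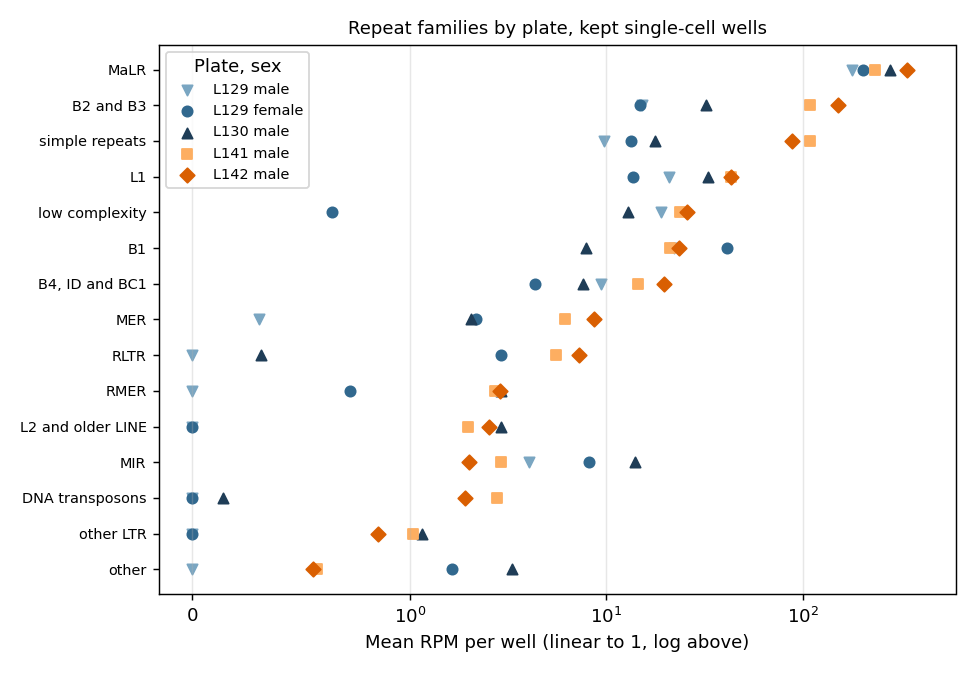
Mean RPM per kept single-cell well (horizontal axis, linear to 1 RPM and logarithmic above) for each repeat family with 20 or more reads, by plate and sex. MaLR is highest on every plate (178.2 to 339 RPM), B2 and B3 and simple repeats lie higher on the session B plates (L141 and L142) than on L129 and L130, and MIR lies lower.

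The sessions held different mixtures of elements. MaLR took 66.2% of the mean repeat level in session A without L128 and 44.2% in session B. Its level was 235.2 RPM in A and 286 RPM in B, while B2 and B3 went from 23.7 to 130 RPM and simple repeats from 14.6 to 98.8 RPM. MIR, an ancient SINE, went the other way, from 10.2 to 2.45 RPM. B1 elements were close in both, at 19.9 and 22.3 RPM. Among males alone, B2 and B3 stood at 15.2 and 32.1 RPM on L129 and L130 against 108.4 and 151.8 RPM on L141 and L142, and simple repeats at 9.75 and 17.6 RPM against 109.4 and 87.9 RPM. Each session is at most 2 preparations, so sessions were described and not tested, and session cannot be told apart from plate, preparation or depth.

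Single rows showed how uneven this was within a family. Pooled over all reads of a session, B2_Mm1t stood at 1.75 RPM in A (6 reads, exact 95% Poisson interval 0.642 to 3.81) and at 88.2 RPM in B (4847 reads), a ratio of 50.5 (95% counting interval 23.2 to 137.5). Its near relative B2_Mm1a stood at 20.4 and 28.97 RPM, a ratio of 1.42 (1.12 to 1.83). The simple repeat (TCTG)n had 2 reads in A and 2630 in B, a ratio of 82.1 (22.7 to 679), and (TG)n had 2 and 699, a ratio of 21.8 (6.02 to 180.6). MTD and MTA_Mm moved little, with ratios of 1.35 (1.22 to 1.48) and 1.24 (1.12 to 1.36). Of the 42 rows with 30 or more reads and at least 1 in session A, the counting interval of the ratio lay above 1 for 17 and below 1 for 4. Their median ratio was 1.89. Session B gave 54946164 reads and session A 3431653, so a minimum on the reads of both favours rows high in B. No direction is therefore read from these counts or from the median.

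The 4 rows that were lower in session B by the counting interval, which leaves out the spread between wells and plates, were MIRc, B1_Mus1, L1_Mur2 and L1MB3. MIRc had 18 reads in 17 wells of A and 12 reads in 12 wells of B, or 5.25 and 0.218 RPM, a ratio of 0.0416 (0.0183 to 0.0914). It was present on both A plates, at means of 13.4 RPM on L130 and 4.02 and 6.32 RPM in males and females of L129. B1_Mus1 stood at 14.0 RPM in A and 4.02 RPM in B, but within A it ranged from 1.499 RPM on L130 to 23.6 RPM in the females of L129. L1MB3 was low on L141 (mean 0.137 RPM), but its 4.59 RPM on L142 lay above the 3.55 RPM in the females of L129. MLT1G3 and Lx8 had no read in A (up to 0.874 RPM with 3 reads) against 5.33 and 3.97 RPM in B, so Lx8 was at least 4.54-fold higher there against a floor of 3 reads over the session, or 3.66-fold by the lower bound of the exact counting interval.

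**Figure D3:**
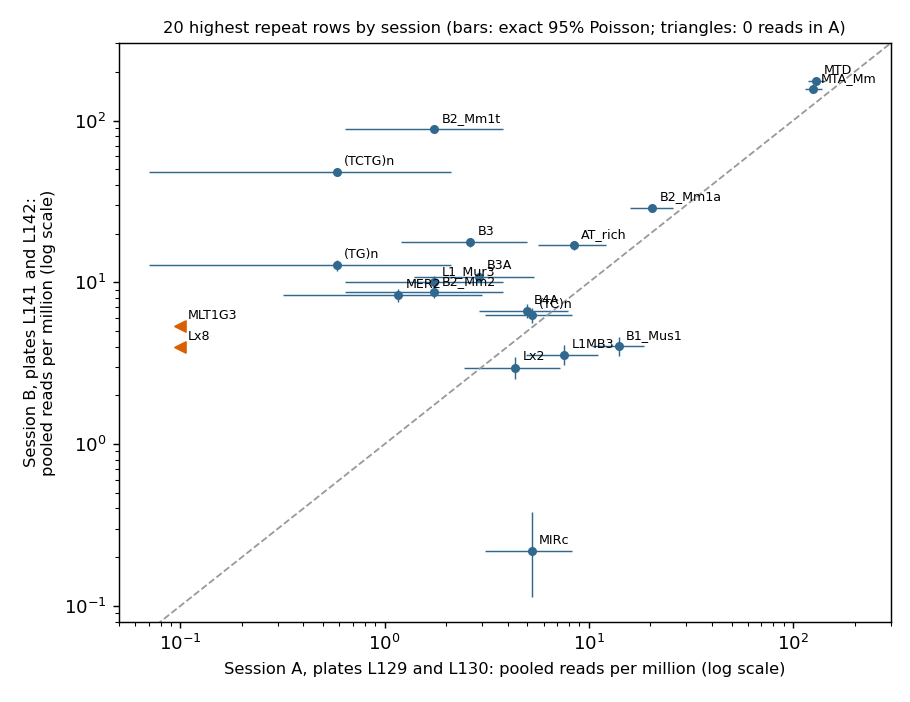
Pooled RPM of the 20 highest repeat rows in session A (plates L129 and L130) against session B (L141 and L142), both axes logarithmic, with exact 95% Poisson intervals; the dashed line marks equal values and triangles, drawn at the left edge, mark rows with 0 reads in A. MTD and MTA_Mm lie near the line, B2_Mm1t and (TCTG)n far above it (ratios of 50.5 and 82.1), and MIRc far below it (0.0416).

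The number of repeat rows in a well followed its reads more closely than the repeat share did. Across wells the number of repeat rows above 0 followed the number of reads (Spearman rho 0.71 over the 45, 40 and 87 wells of L129 females, L129 males and L130, and 0.91 over the 89 and 87 wells of L141 and L142), while the repeat RPM followed it only weakly (0.25 and 0.18). Within single gates (set below), repeat RPM and reads correlated at 0.52 in the 25 Tac1 wells of session A without L128. The same correlation was 0.19 in Pvalb, -0.09 in Th and -0.13 in Nefh wells there. In session B it lay between -0.10 (Nefh) and 0 (Th) in these 4 gates. These are correlations over wells, which share plates, and are given as descriptions. When each well was thinned to 5000 reads by exact expectation, session A wells were expected to show 1.37 repeat rows (11 wells were too shallow and left out) and session B wells 2.36 (none left out), against 3.51 and 28.1 before thinning. Without MTD and MTA_Mm the expected rows were 0.604 and 1.64.

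MTD and MTA_Mm, the highest pair, mostly occurred in the same wells in session B, at close to equal levels. In session B 10 wells held reads of MTD alone, 8 of MTA_Mm alone and 5 of neither, and all the others held both. In session A without L128, where depth was lower, 96 wells held both, 21 MTD alone, 15 MTA_Mm alone and 40 neither. In the 98 wells with 10 or more MTA_Mm reads the ratio of MTD to MTA_Mm reads ran from 0.200 through a median of 1.12 to 1.95, with quartiles of 1.00 and 1.28. Over all reads the ratio was 1.12 in session B and 1.03 in session A. The correlation of their log2(RPM + 5) levels was r = 0.72 over the wells of B and 0.55 over those of A. In B, MER2 (known as a DNA transposon) and B2_Mm1t followed next, at 0.60 and 0.61 with MTD, and B2_Mm1t and MER2 were related at 0.64. In A, where MER2 and B2_Mm1t had 4 and 6 reads, the last value was -0.03.

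**Figure D4:**
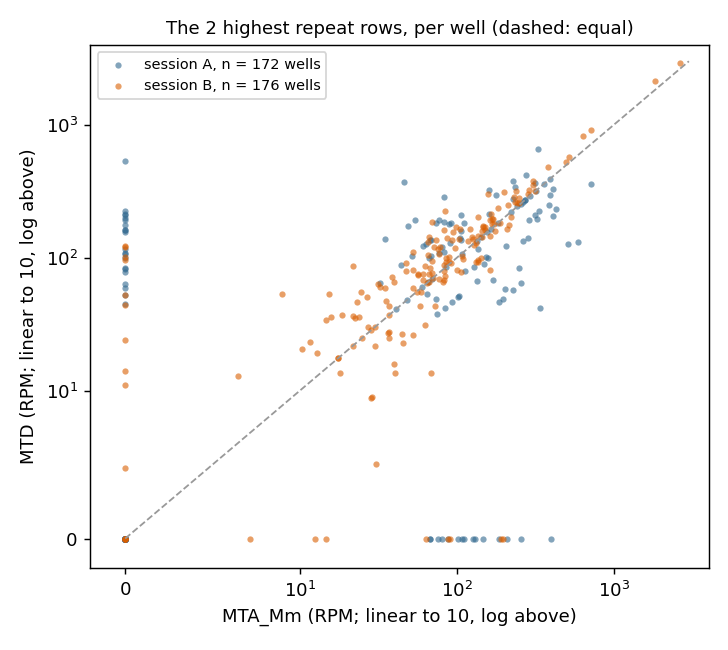
MTD against MTA_Mm in each kept well outside plate L128 (RPM, both axes linear to 10 and logarithmic above), by session, with the line of equal values dashed. Wells of both sessions follow the line, with a median read ratio of 1.12 in session B, and 2 wells lie far above the rest at the upper right.

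A few wells held much more than the rest. The highest was a well of L141 in the Nefh gate (below) with 7356 RPM and 1228 repeat reads, of which MTD (485) and MTA_Mm (442) made up 75.5%. The second was a well of L142 that met several gates, with 5580 RPM and 70.7% from the pair. A Pvalb well of L142 with 3385 RPM held 43.1% from the pair, and another with 1930 RPM held 56.6% of its 2360 repeat reads from the pair.

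Gene rows with the most similar pattern were sought over the wells of session B, in genes averaging at least 5 RPM there. For MTD the first was Enpep, which encodes glutamyl aminopeptidase (r = 0.69), then 9530052E02Rik (0.68), Crx, a photoreceptor transcription factor gene (0.64), Mir690 (0.59) and B230208H11Rik (0.53). For MTA_Mm the first was Crx (0.76) and then 9530052E02Rik (0.73). For B2_Mm1t the first was 9530052E02Rik (0.78) and then B230208H11Rik (0.73), BC018473 (0.61) and Mir690 (0.61). 9530052E02Rik, B230208H11Rik, Mir690 and Crx stood among the first 5 genes of all 3 rows, which belong to 2 families. In session A without L128 the values were lower: 0.52 for MTD with Enpep, 0.51 for MTA_Mm with 9530052E02Rik, 0.16 for MTA_Mm with Crx and 0.15 for B2_Mm1t with 9530052E02Rik. These values have no test, because the genes were chosen for them and the wells share plates and depth.

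The 18-base run shown above was found in transcripts of 9530052E02Rik, B230208H11Rik, Mir690 and BC018473, 4 of the 6 genes named, and not in Crx or Enpep. Crx shares with B230208H11Rik a 19-base run that overlaps it, GGCTGGAGAGATGGCTCAG, found in 848 of 55341 genes (1.53%), and Enpep shares no run of 16 bases with 9530052E02Rik. Mir690 and BC018473 share a 23-base run that spans the mature miR-690, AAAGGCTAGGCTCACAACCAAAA, which 19 genes hold (0.0343%). A match describes letters and not a source of reads, and how the authors divided reads between gene rows and repeat rows is not given in the sources used here.

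Some of these gene rows kept their level on L128, where the repeat rows were near 0, and others did not. On L128, Enpep stood at 164.96 ± 164.6 RPM and Mir690 at 104.7 ± 125.8 RPM (SD, n = 87 wells), against 188.4 ± 166.2 and 98.98 ± 122.05 RPM on L130, and B230208H11Rik stood at 271.8 ± 254.2 against 100.5 ± 123.3 RPM. The level of 9530052E02Rik was 11.3 ± 32.02 RPM on L128 (reads in 13 of 87 wells) against 505 ± 418 RPM on L130, and Crx had no read on L128. In session C, over 259 wells with 1000 or more gene rows, B230208H11Rik averaged 1908 RPM and 9530052E02Rik 616 RPM, while Enpep (2.28 RPM) and Mir690 (3.30 RPM) were low.

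Other rows had weaker likeness. The first gene for (TCTG)n was Fstl1 (0.44), for AT_rich Enpep (0.42), for B3 Fgf23 (0.41), for B1_Mus1 Cdadc1 (0.39) and for (TG)n Snx30 (0.53). B2_Mm1a was again led by 9530052E02Rik (0.63). For Lx8, an old L1 element, the leading genes were Notch3 (0.55), Mylk (0.53), Timp4 (0.50), Cspg4 (0.50) and Tagln (0.49), of which Notch3, Mylk, Cspg4 and Tagln are known from the mural cells of vessel walls. Lx8 was highest in the non-neuronal well with the highest mural marker sum (279 RPM of Lx8 and 6038 RPM of Rgs5 and Acta2), which held 3 of its reads among 10765. The well with the next highest mural sum (4404 RPM, 45186 reads) held no Lx8, and a well with 55.1 RPM of Lx8 had no mural marker.

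To compare sensory neuron types, wells were gated on marker genes. A well entered the Th gate (Th marks low-threshold C fibres), the Mrgprd gate (nonpeptidergic nociceptors), the Tac1 gate (peptidergic nociceptors) or the Pvalb gate (proprioceptors) with 100 RPM or more of that gene alone. The Nefh gate (myelinated neurons) took 500 RPM or more of Nefh and none of the others. Wells with more RPM over a panel of 24 non-neuronal genes than over 11 pan-neuronal genes were called non-neuronal. This gave 26 Th, 11 Mrgprd, 69 Tac1, 33 Pvalb, 61 Nefh and 9 non-neuronal wells, while 47.1% of kept wells met several gates and 21 wells none. Of those that met several, 200 had Tac1 at 100 RPM or more, and 8 of 16 control wells held a Tac1 read. A gate of 10000 RPM for Tac1 was therefore added after the data were seen. Without L128 it gave 91 Th, 33 Mrgprd, 22 Tac1, 48 Pvalb, 54 Nefh and 9 non-neuronal wells. Other markers of each type were read as a check of the gates: 3 of 3 for Th, 5 of 5 for Mrgprd, 4 of 4 for Tac1, 5 of 5 for Pvalb and 4 of 5 for Nefh were highest in their own gate among the neuron gates, Nefm being higher in Pvalb wells.

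Every gate held repeat reads, and their ranges overlapped. Without L128, the repeat total of session B wells ran from 135.5 through a median of 302 to 671 RPM in the Th gate (7 wells) and from 182.7 through 449 to 1253 RPM in the Mrgprd gate (4 wells). It ran from 84.005 through 322 to 2305 RPM in the Tac1 gate (36 wells), from 292 through 937 to 3385 RPM in the Pvalb gate (13 wells) and from 327 through 666 to 7356 RPM in the Nefh gate (25 wells). The 9 non-neuronal wells, all in session B, ran from 154.9 through 441 to 1255 RPM. In session A males without L128 the means were 433 RPM for Th, 353 for Mrgprd, 301 for Tac1, 222.02 for Pvalb and 437 for Nefh. Females had 422 RPM in Th, 403 in Pvalb and 481 in Nefh wells. So Pvalb was the highest gate in session B and the lowest in session A males.

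In no neuron gate did the repeat share differ from the other gates at an adjusted p under 0.05 (exact permutation within preparations). Over preparations it averaged 358 ± 56.001 RPM in Th (SD, n = 3), 398 ± 263 in Mrgprd (n = 2), 344 ± 166.4 in Tac1 (n = 2), 591 ± 604 in Pvalb (n = 3) and 544 ± 375 in Nefh wells (n = 3). Without L128 the means were 397 ± 53.7, 468 ± 162.6, 382 ± 113.4, 631 ± 558 and 622 ± 283 RPM in the same order. In an exact two-sided permutation of gate labels within preparations, adjusted over the 5 gates, the Pvalb difference of 166.8 RPM had p = 0.32 and adjusted p = 0.80 and was positive in 1 of 3 preparations. The Nefh difference of 114.5 RPM had an adjusted p = 0.80 in the same exact test and was positive in 2 of 3 preparations, and in 3 of 3 without L128 (154.6 RPM, adjusted p = 0.60). The Tac1 difference was -152.2 RPM (adjusted p = 0.80, exact permutation). With 2 preparations the smallest p this test allows is 0.04, and with 3 it is 0.0133.

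Of family levels, 0 of 65 pairs of 13 families and 5 gates passed the adjusted threshold in the exact permutation test (smallest adjusted p = 0.98), and 1 pair had p below 0.05 before adjustment. Without L128 the counts were the same (smallest adjusted p = 0.99, exact permutation). That pair was simple repeats in Mrgprd wells, lower by a log2 difference of -1.24 in both preparations (p = 0.04, the smallest the exact test allows), and by -1.43 without L128. With the Tac1 gate at 10000 RPM, described below, the same difference was 0.21, and 0.41 without L128 as well, so its direction rests on the gates.

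MTD, the highest row, shows how wide the spread within a gate was. In session B without any cut on Tac1 beyond 100 RPM, MTD ran from 0 through a median of 54.9 to 140.8 RPM in 7 Th wells and from 0 through 50.2 to 907 RPM in 36 Tac1 wells. It ran from 0 through 260 to 823 RPM in 13 Pvalb wells and from 66.1 through 168.75 to 2905 RPM in 25 Nefh wells, all of which held it. In session A males it ran from 0 through 117.2 to 359.7 RPM in 11 Th wells, from 0 through 46.2 to 323 RPM in 23 Tac1 wells, from 0 through 72.5 to 99.1 RPM in 6 Pvalb wells and from 0 through 158.1 to 359 RPM in 14 Nefh wells. Females ranged from 0 through 185.6 to 277 RPM in 7 Pvalb wells and from 48.8 through 256 to 370 RPM in 6 Nefh wells. These ranges overlapped in every preparation. Of the simple repeats, those with a unit of 4 bases had 2852 reads from 22 rows, (TCTG)n giving nearly all of them, and those with a unit of 2 bases had 1479 reads from 6 rows.

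For single rows, limma was fitted to log2(mean RPM + 5) over 14 gate and preparation means with the preparation as a block (6 residual degrees of freedom), on all 9812 rows with a mean of 5 RPM or more. Of the 340 repeat rows with reads, 11 passed this filter: MTD, MTA_Mm, B2_Mm1t, B2_Mm1a, B3, L1_Mur3, B1_Mus1, B1_Mur3, AT_rich, (TCTG)n and (CAGA)n. In the Th gate 0 of 11 were called at an adjusted p under 0.05 with limma, where 0.561% of all rows were called. The count was also 0 for Mrgprd (6.7% of all rows called), Tac1 (0.153%), Pvalb (3.45%) and Nefh (0.989%). At an unadjusted p under 0.05 the repeat rows counted 1 in Pvalb and 0 in the other neuron gates, and edgeR on recovered reads called 0 of 10 rows in each neuron gate, also before adjustment. The 1 row was (TCTG)n in Pvalb wells, with a log2 difference of 1.29 ± 0.58 (SE, limma p = 0.042, adjusted p = 0.29). Without L128, 13 repeat rows passed the filter, and 0 were called and 0 had an unadjusted p under 0.05 in any neuron gate, (TCTG)n in Pvalb wells having p = 0.054 (limma adjusted p = 0.35). The median log2 difference of the repeat rows lay between -0.16 (Mrgprd) and 0.24 (Pvalb), beside -0.53 and 0.18 for all rows tested. MTD differed by 0.54 ± 0.51 in Nefh, 0.59 ± 0.60 in Mrgprd, -0.13 ± 0.51 in Pvalb, -0.49 ± 0.51 in Th and -0.52 ± 0.60 in Tac1 wells (log2, SE).

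The wells with the highest Tac1 held less MTD and MTA_Mm than the other neuron gates, by a gate that was set after the data were seen. With the Tac1 gate at 10000 RPM and without L128, MTD was at 0 in all 7 Tac1 wells of session A males. In the 15 Tac1 wells of session B it ran from 4.78 through a median of 24.8 to 92.4 RPM. The Th gate of session B, with 42 wells, ran from 0 through 76.1 to 312 RPM, and the Mrgprd gate, with 16 wells, from 27.4 through 90.9 to 379 RPM. Pvalb wells (23) ran from 0 through 169.4 to 823 RPM and Nefh wells (30) from 0 through 151.7 to 2905 RPM. The groups overlapped, but 15 of 23 Pvalb, 23 of 30 Nefh, 17 of 42 Th and 8 of 16 Mrgprd wells lay above the highest Tac1 well. MTA_Mm was also lowest in the Tac1 gate of session B, with a median of 18.5 RPM against 65.5 in Th, 97.3 in Mrgprd, 135.9 in Pvalb and 146.1 in Nefh wells. Its mean there was 26.8 RPM ± 24.5 (SD, n = 15 wells) against 66.6 ± 46.03 in Th, 105.7 ± 71.6 in Mrgprd, 191.4 ± 177.6 in Pvalb and 225.8 ± 463 in Nefh wells.

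In limma with this gate MTD was lower in Tac1 wells by a log2 difference of -3.42 ± 0.56 (SE, adjusted p = 0.0015) and MTA_Mm by -2.38 ± 0.41 (adjusted p = 0.0025), over 2 Tac1 preparations and 7 residual degrees of freedom. With L128 the values were -3.001 ± 0.48 (limma adjusted p = 0.0013) and -2.21 ± 0.39 (adjusted p = 0.0026). These 2 of 11 rows stand beside 3.33% of all rows called lower in the same contrast. With Tac1 at 100 RPM the differences were -0.52 and -0.46 (limma adjusted p = 1 each), so both calls rest on the added gate. Depth moved with this result: Tac1 wells of session A had a median of 6654 reads and 49085 in all, so that 0 reads allow up to 61.1 RPM of MTD, below the 130 to 157.9 RPM pooled in the other gates of session A males. In session B the Tac1 wells had a median of 107892 reads against 198304 in Th and 749316 in Nefh wells. The Tac1 wells of session A had 1094 to 2142 gene rows, a range that also holds the medium-only wells of plate L130. The part of depth, or of reads from medium, in the result was not tested. In session A males MTD had 0 reads in the Tac1 wells, so its level in the fit was that of the added 5 RPM alone. The size and SE of the MTD difference depend on that constant, and no other constant was tried with this gate. The whole repeat share differed by -372 RPM in these Tac1 wells, in 2 of 2 preparations (exact permutation p = 0.04, the smallest possible; adjusted p = 0.20).

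**Figure D5:**
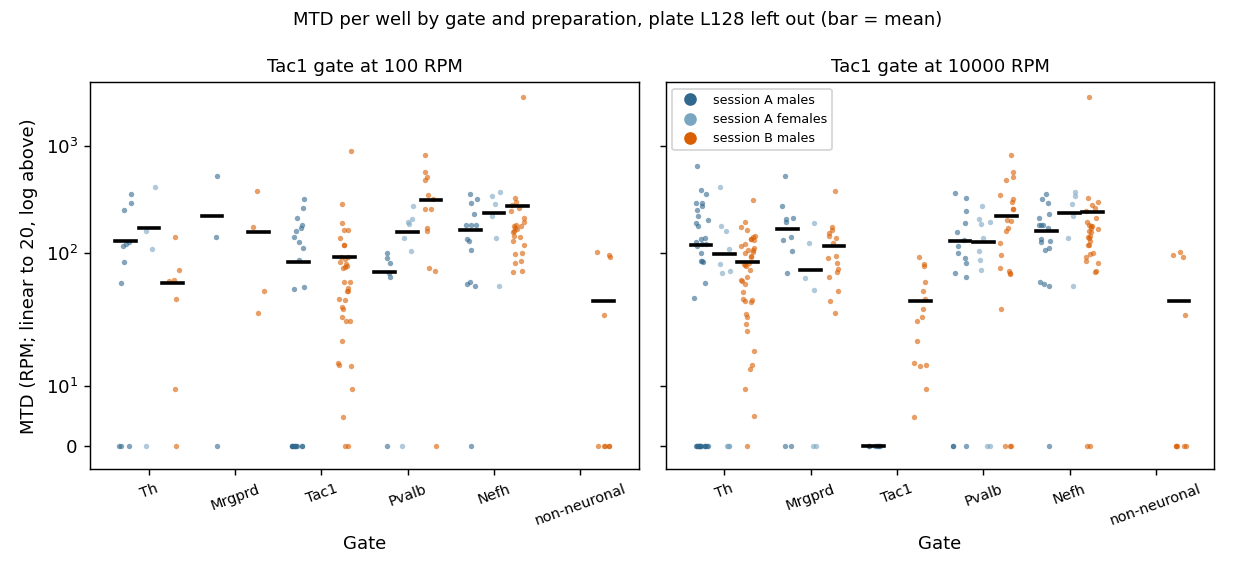
MTD per kept well (RPM, linear to 20 and logarithmic above) by gate and preparation without plate L128, with the Tac1 gate at 100 RPM (left) and at 10000 RPM (right); bars are means and groups of fewer than 3 wells are left out. At 10000 RPM the Tac1 wells lie at 0 in session A and reach 92.4 RPM in session B, under the highest wells of every other neuron gate.

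The 9 non-neuronal wells had medians of 0 for both leading rows. All 9 held repeat reads, 73 in total, at a mean of 533 RPM ± 331 (SD over wells). MTD was above 0 in 4 of 9 wells and MTA_Mm in 3 of 9, with highest values of 100.9 and 192.1 RPM. Means of 45.96 RPM for L1_Mur3 and 27.97 RPM for B3 came from 6 and 4 reads in 5 and 4 wells. In the same preparation the highest neuron gate mean was 17.5 RPM for L1_Mur3 (Tac1) and 21.98 RPM for B3 (Pvalb), and the differences from the neuron gates did not pass (limma log2 1.73 ± 0.82 and 1.01 ± 0.75, SE, adjusted p = 0.16 and 0.35). L1MB3, B3A, B2_Mm2, MLT1G3, (TG)n and (TC)n were at 0, which allows up to 16.99 RPM (3 reads over all 9 wells). The (TCTG)n mean of 5.604 RPM also lay under that floor. These wells were shallow, with a median of 12754 reads, and mixed: satellite glia markers were present in 8 of 9 (0 to 90426 RPM), Schwann markers in 6 (0 to 11711 RPM), fibroblast markers in 5 (0 to 103349 RPM), mural markers in 3 (0 to 6038 RPM), and endothelial and immune markers in none. The pan-neuronal panel was at 6440 to 33735 RPM. What these mixtures add to the repeat levels was not tested.

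With the non-neuronal wells set against the neuron gates, limma called 1 of 11 repeat rows, where 16.4% of all rows were called. The row, the simple repeat (CAGA)n, had a log2 difference of 3.99 ± 0.57 (SE, adjusted p = 0.00023), but it rested on 1 well. That well of L142 held 9 (CAGA)n reads (706 RPM) and the other 8 held none, and (CAGA)n passed the filter on low values only through this group. Without that well 0 of the repeat rows tested were called, and without L128 (CAGA)n was again the 1 row called (limma adjusted p = 0.00053). Over the 14 gate and preparation means, of which 1 is high for (CAGA)n, the gene most like it was Rac2 (r = 1.00). MTD and (TCTG)n were lower, by log2 differences of -1.92 ± 0.83 and -2.48 ± 0.94, and did not pass (limma adjusted p = 0.13 and 0.088). MTD was called only with 2000 or more gene rows per well, where it was lower by -3.50 and (TCTG)n by -3.55, while (CAGA)n was not called. The wells left by that cut had 2356, 2112 and 2022 gene rows and held 26.2, 0 and 0 RPM of MTD. Further settings that called (TCTG)n are given in the last section. edgeR called 0 of 10 rows here, with 2 at an unadjusted p under 0.05. Non-neuronal wells came from 1 preparation, so the contrast borrows its spread from the neuron gates.

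The genes that silence repeats or make and bind polymerase III transcripts were compared over the same gates from 2 lists of known genes. Of 31 genes for repeat silencing (DNA methylation, H3K9 methylation, heterochromatin proteins and antiviral factors) 22 passed the filter, and 0 of 22 were called in any neuron gate in either direction with limma, beside 0.153% to 6.7% of all rows, so that nothing is read from these counts of 0. The most abundant were Cbx5, Cbx3, Kdm1a and Mphosph8, which encode heterochromatin proteins, a histone demethylase and a member of a silencing complex, at means of 106.2 ± 94.2, 97.7 ± 144.6, 77.2 ± 98.2 and 68.3 ± 26.8 RPM (SD over 14 gate and preparation means). In the non-neuronal wells 1 of 22 was higher and 0 lower, where 16.4% of all rows were called. It was Cbx3 (log2 4.04 ± 1.02, SE, limma adjusted p = 0.014), and its group mean of 584 RPM rested on 1 well with 4899 RPM. The next well held 235.8 RPM and the mean of the other 8 wells was 44.1 RPM, inside the 36.2 to 83.6 RPM of the neuron gate means. Of the list's median differences, that in non-neuronal wells was 0.06 beside -0.83 for all rows. Without the well holding (CAGA)n it was -0.30 beside -0.90, and with the Tac1 gate at 10000 RPM -0.43 beside -0.94. The median of the polymerase III list (below) in these wells was -0.50 beside -0.83.

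The polymerase III list held 20 genes, of which 19 passed the filter and 0 were called in any neuron gate with limma, beside the same shares of all rows. Srp14, a protein that binds Alu-like RNA in the signal recognition particle, was the highest at 707 ± 207.2 RPM, followed by Ssb, the La protein that binds new polymerase III transcripts, at 123.6 ± 48.5 RPM (SD, n = 14). In non-neuronal wells, which are 1 preparation, 3 of 19 were lower and 0 higher, close to the 16.4% of all rows called: Srp14 (log2 -1.69 ± 0.33, limma adjusted p = 0.0023), and the polymerase subunit genes Polr3g and Polr3k (-4.24 ± 0.84 and -3.02 ± 0.95, adjusted p = 0.0027 and 0.042). Without L128 Polr3k was no longer called (2 of 19). Polr3g and Polr3k had no read in the 9 wells, which allows up to 16.99 RPM. With the Tac1 gate at 10000 RPM, 1 of 19 and 1 of 22 genes were called in Tac1 wells, where 5.12% of all rows were: Ssb was lower (log2 -1.29 ± 0.36, limma adjusted p = 0.044) and Morc2a, a silencing ATPase gene, higher (3.20 ± 0.55, adjusted p = 0.0022), the latter with reads in 8 of the 15 wells of session B. Under the same gate Trove2, which encodes an RNA-binding protein, was lower in Mrgprd wells (log2 -1.54 ± 0.47, limma adjusted p = 0.049; 1 of 19, beside 8.6% of all rows). In non-neuronal wells 2 of 19 were then higher (Trove2 and Polr3gl) and 3 lower, and Cbx3 was again the 1 of 22 called, beside 27.4% of all rows. None of either list was called in the Th, Pvalb and Nefh gates, beside 3.41%, 7.05% and 2.84% of all rows.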

How the data were processed

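RNA of hand-picked dorsal root ganglion cells was sequenced, with 1 library per well. Reads were mapped with Bowtie (version not given in the sources used here) to mm9, per the submitters' processing notes. The authors deposited RPM per row and well, scaled to 1000000 over gene and repeat rows together, without molecular identifiers. The columns of 4 control wells of session C hold whole numbers and were treated as a score of unknown scale, as deposited, and not used in any test. How reads with several genomic matches were assigned is not given in the sources used here.

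From these RPM values whole reads were recovered by the smallest step of each column. Values up to 100 reads were whole within 0.1 read in 100% of cases, among repeat rows as well. Gene copies at several loci were summed (23281 genes). Wells with a label of several cells entered no group, and no doublet caller was run. RPM was averaged over the wells of each gate and preparation with 3 or more wells and tested with limma 3.58.1 (log2 of mean RPM + 5, Benjamini-Hochberg adjustment over all rows), with edgeR 4.0.16 on summed recovered reads as an alternative and exact permutation tests for shares and families. Fits were tested on simulated data. Preparations pair the gates because their wells share a picking session and sex. Named repeat rows are the 10 with the highest mean RPM, the highest of each family and those called in a contrast with the gene most like them. Rows named for their session ratio and genes most alike over session B wells were chosen after their values were seen. The members, lists and gates were chosen with earlier results of these data known. Shared runs of 16 or more bases were sought in GENCODE vM21 transcripts on both strands, and no mm9 coordinates are given.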

Additional observations from a re-analysis of the deposited data

Results flagged for a closer look

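Of 22 sets of 4 to 10 wells of a gate and preparation, 5 held a well that stood far from the others by Dixon's criterion. Chance gives this in about 1 of 20 sets of normally distributed values, and these sets share wells. That rate does not hold for skewed values such as repeat RPM. Nor does it hold for sets in which all other wells are at 0, where any well with reads stands out. In the 4 Th wells of session A females the repeat total of 1 well was 832 RPM, and the next was 341 RPM. In the 5 Mrgprd wells of session A males 1 well held 530 RPM of MTD, the next 141.45 RPM, and MTA_Mm was 283 RPM in 1 well and 0 in the others. Among the 9 non-neuronal wells of session B, MTA_Mm reached 192.1 RPM in 1 well, with the next at 91.9 RPM, and (CAGA)n reached 706 RPM in 1 well and was 0 in the others. The wells labelled as holding more than 1 cell entered no comparison. The one on plate L142 held 1503 RPM of repeat reads (10 of 6652 reads, 95% Wilson interval 817 to 2765). The one on plate L129 held 339 RPM (10 of 29502 reads, 184.1 to 624). The highest medium-only well, at 632 RPM, rested on 1 read (111.5 to 3570), so no order is read from these values.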

How the results depend on the processing

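Under the 20 alternatives that gave values, no repeat row was called in the Th, Pvalb or Nefh gates, nor in the Mrgprd gate under 19, and no family and gate pair passed under 18. For Tac1 the count went from 0 to 2 with the gate at 10000 RPM, with or without L128, where MTD and MTA_Mm differed by log2 -3.001 and -2.21, and by -3.42 and -2.38 without L128. In non-neuronal wells the count of 1 became 4 with 2000 or more gene rows, 3 with plates as replicates, 3 with a panel ratio of 3, 3 with the Tac1 gate at 10000 RPM, 14 without the filter, 0 with edgeR, 0 without the well holding (CAGA)n and 2 to 2 without session A males or females (without session B males no such well is left). The cause was not tested. Among the rows called there, (TCTG)n was lower with 2000 or more gene rows (-3.55), with plates (-2.81), with rows limited to their 95th percentile (-2.75) and with the Tac1 gate at 10000 RPM (-2.39), and (CAGA)n was not called with 2000 or more gene rows or with rows so limited. Leaving out a preparation moved the share difference of Pvalb from -92.2 to 318 RPM, of Tac1 from -321 to 16.9 RPM and of Th from -250 to 55.2 RPM, with the sign turned without session B males. The small MTD difference in Pvalb wells (-0.13) turned positive: 0.072 and 0.32 with gates at 50 and 200 RPM, 0.13 with plates, 0.27 with edgeR, 0.022 without L128, 0.98 and 1.05 with the Tac1 gate at 10000 RPM (without L128 the latter), and -0.99 to 0.65 with 1 preparation left out. MTA_Mm there ranged from -0.43 to 0.77 with 1 preparation left out. Without the preparation as a block, MTD in Pvalb wells differed by 0.015 and the (CAGA)n difference was 4.03; the block changed no call. Depth in session A, with a median of 15421 reads per male well, limits all rows there. This includes MTD and MTA_Mm, of which 40 wells of session A without L128 held neither.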
